A study of Mus musculus with 4 samples.

Results

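Levels of 9 glucocorticoid response genes were followed across cell types of mouse adipose tissue. The genes were chosen by symbol from the 32290 features of each count table, all 9 were found, and each is protein coding. They are the receptor gene Nr3c1, the hormone-activating enzyme Hsd11b1, and the hormone-responsive genes Fkbp5, Tsc22d3, Per1, Zbtb16, Sgk1, Mt1 and Mt2. The measurement was single-cell RNA sequencing of 2 depots, subcutaneous adipose tissue (SC) and visceral intraperitoneal adipose tissue (IP), in 2 genotypes, with 1 library for each of the 4 groups. The question for these genes was how their levels differ between cell types, between KO and WT within a depot, and between IP and SC within a genotype. WT mice were Tie2e-cre; TERT+/+; mTmG, and KO mice were Tie2e-cre; TERTfl/fl; mTmG. All groups thus shared the Cre transgene, driven by the Tie2e promoter of endothelium, and the mTmG reporter. Every mouse was a male aged 7 months that had received high-fat diet (HFD) for 5 months. The number of mice in a library is not given in the sources used here, and the labels name both cells and nuclei as the material loaded.

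Glucocorticoids act through a receptor that waits in the cytosol in a complex with heat shock proteins and, once bound by hormone, moves to the nucleus and binds DNA. Cells can also make active hormone from an inactive circulating form with the enzyme encoded by Hsd11b1, which is known in fat tissue as a local amplifier of the hormone. Among the target genes, Fkbp5 encodes a co-chaperone that lowers hormone binding by the receptor, and the metallothionein genes answer to zinc and other metals as well as to the hormone.

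The 4 tables held between 10015201 and 15533961 unique molecular identifiers (UMIs, 1 per captured RNA molecule), and 968, 1863, 672 and 518 cells were kept in WT SC, KO SC, WT IP and KO IP, with median depths of 6908 to 13047 UMIs. The KO SC and WT IP libraries shared 93 cell barcodes, while other pairs of libraries shared at most 1. For 92 of the shared barcodes, the KO SC library held between 1.5% and 1.99% of the UMIs that WT IP held under the same barcode. These 92 were left out of KO SC, which lowered its adipose stromal cells (ASC) from 178 to 122. With them kept no log2 ratio of the 9 genes moved by more than 0.031. The 92 had a median of 593.5 UMIs in KO SC, so sums over a cell class could hardly move. Over all barcodes, Tert, the targeted gene, had 3, 2, 8 and 9 UMIs in the same order, too few to check the genotype labels. The mature adipocyte genes Adipoq, Plin1 and Cidec had 0 to 5 UMIs each per library in the kept cells. Endothelial-like cells, in which Cre is driven, numbered 2, 2, 17 and 5, and their leading genes included lymphatic ones (Ccl21a, Mmrn1, Lyve1). Comparisons therefore rest on ASC-like cells (95, 122, 273 and 205 cells), T cell-like cells (451, 1156, 111 and 125) and B cell-like cells (302, 460, 20 and 24).

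Below, 4 values in a row stand in the order WT SC, KO SC, WT IP, KO IP. Levels are given as counts per 1000000 UMIs of a cell class in a library (CPM), with 95% intervals that cover counting error only. With 1 library per group there were no replicates, no difference could be set against the spread between mice, and no test was run. UMI counts were not scaled to gene length, so levels are compared between cells and not between genes. Of the 9 genes, 5 were higher in ASC-like than in T cell-like cells in all 4 libraries beyond counting error (Fkbp5, Sgk1, Hsd11b1, Mt1 and Mt2), and 3 were lower in all 4 (Nr3c1, Tsc22d3 and Per1). Zbtb16 was higher in ASC-like cells in both SC libraries and lower in KO IP, while the interval held 0 in WT IP (log2 ratio -0.22, -0.47 to 0.04).

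**Figure D1:**
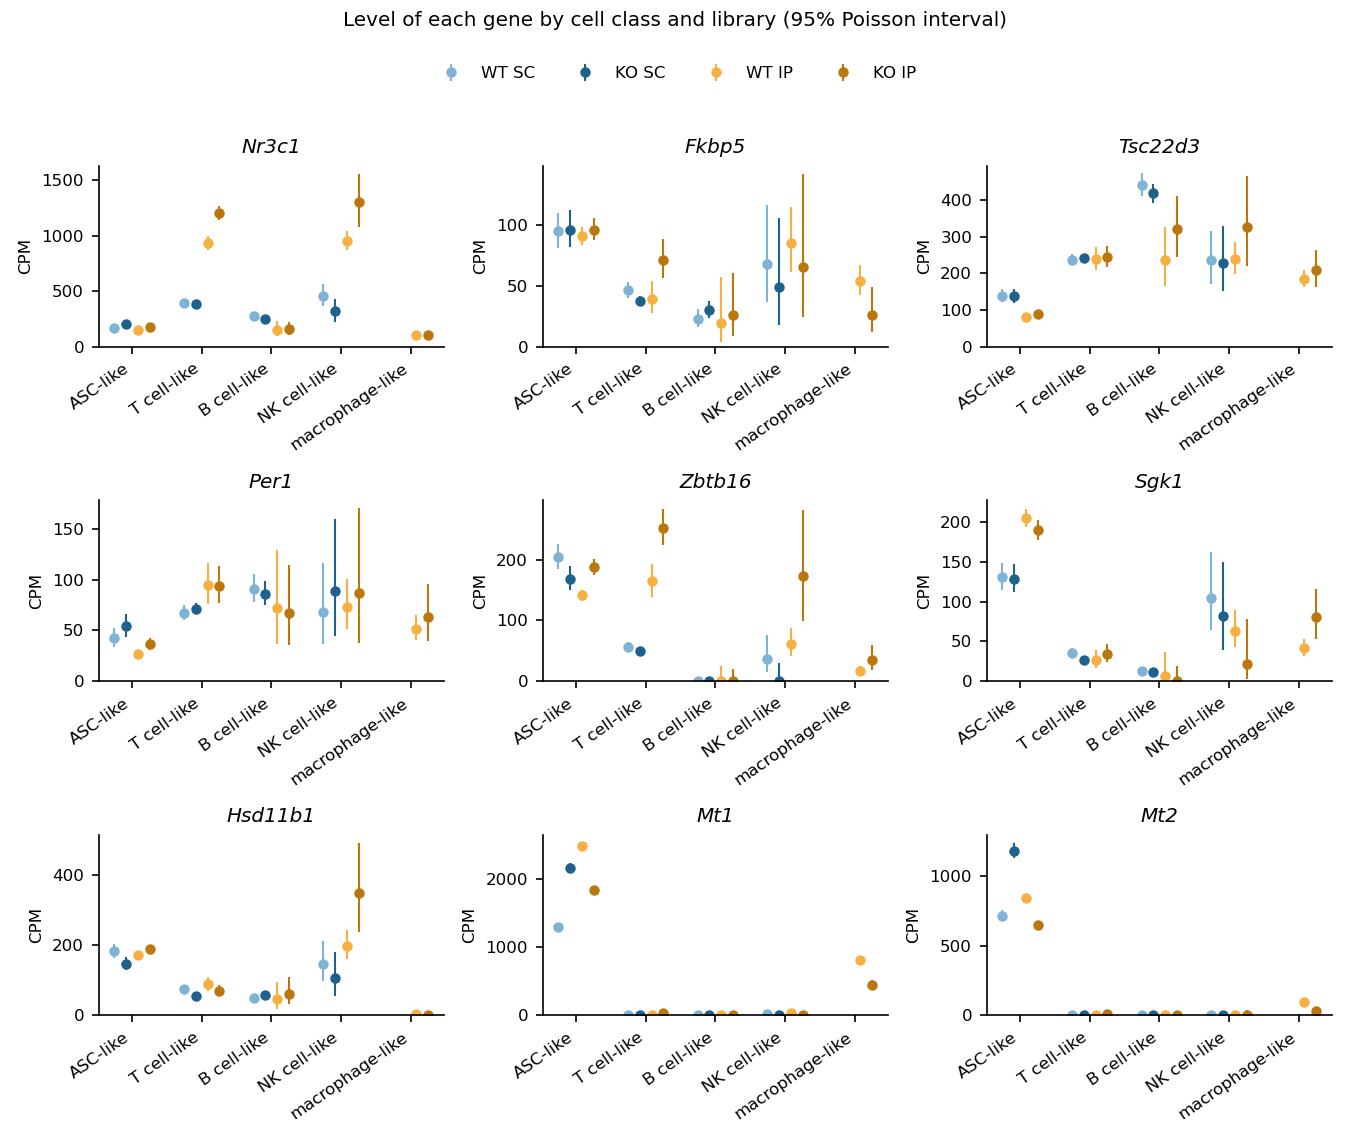
Level of each of the 9 genes in CPM (vertical axes, from 0) in 5 cell classes (horizontal axes), with 1 point per library and 95% Poisson intervals; macrophage-like cells are drawn for the IP libraries alone, since SC had under 10 cells. Nr3c1 was highest in T cell-like and NK cell-like cells of IP, Tsc22d3 in B cell-like cells of SC, and Mt1 and Mt2 were close to 0 in lymphocytes.

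Nr3c1 (ENSMUSG00000024431, GRCm38 chromosome 18, 39410545 to 39519421, minus strand) encodes the glucocorticoid receptor. In T cell-like cells its level was 389 (interval 371 to 407), 388 (376 to 401), 932 (871 to 997) and 1208 (1145 to 1274) CPM in WT SC, KO SC, WT IP and KO IP. Both IP libraries thus lay far above both SC libraries. NK cell-like cells, of which there were 21, 14, 52 and 13, had 457, 317, 956 and 1303 CPM. In KO IP, 75 of their 120 Nr3c1 UMIs came from 1 cell, without which the level was 595 CPM. In WT SC, 27 of 87 came from 1 cell, and the level without it was 335 CPM. ASC-like cells had 163 (145 to 183), 204 (183 to 227), 146 (136 to 156) and 178 (166 to 191) CPM, a narrower range, in which KO was the higher genotype of either depot. Macrophage-like cells, present in number only in IP, had 101 and 100.2 CPM in WT and KO. B cell-like cells went the other way from T cell-like cells, with 273 and 250 CPM in WT SC and KO SC against 151 and 155 CPM in WT IP and KO IP, although the IP values rest on 23 and 30 UMIs.

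Within T cell-like cells of WT SC, KO SC and KO IP the receptor gene was higher in gamma delta cells, a subset marked by Trdc and Tcrg-C1, than in CD4 or CD8 T cells, with 981, 1340 and 1933 CPM. In WT IP, where gamma delta cells were 9, CD4 T cells had 1274 CPM, and T cell-like cells as a whole had 932 CPM with the gamma delta cells and 931 CPM without them. CD4 T cells had 361 and 384 CPM in WT SC and KO SC and 1274 and 1048 CPM in WT IP and KO IP, and CD8 T cells had 281, 214, 443 and 634 CPM in that order. In WT the difference between depots was thus also seen within CD4 and within CD8 T cells. KO pointed the same way, but its 29 CD4 and 26 CD8 T cells in IP were under the minimum set for a comparison. Other genes differed between depots in these subsets too. Klf2 had 824 and 224 CPM in CD4 T cells of WT SC and WT IP. In CD8 T cells it had 764 and 240 CPM. The part of such genes in the Nr3c1 levels was not tested.

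Hsd11b1 (ENSMUSG00000016194, chromosome 1, 193221634 to 193264075, minus strand) encodes the reductase 11beta-HSD1, which turns inactive 11-keto steroid into active hormone. ASC-like cells held 183 (163 to 204), 146 (128 to 165), 172 (161 to 182) and 188 (176 to 201) CPM. KO SC was the lowest, and its interval reached into those of WT SC and WT IP but not that of KO IP. T cell-like cells held 74.3, 54.1, 88.2 and 70.6 CPM, and B cell-like cells 45.9 to 62.1 CPM. NK cell-like cells ranged from 106 CPM in KO SC to 348 CPM in KO IP, and neutrophil-like cells of KO SC and KO IP had 470 and 329 CPM, from 10 and 22 cells. Mesothelial-like cells of KO IP had 0 UMIs of 1446682, which allows up to 2.07 CPM. Macrophage-like cells had 4 UMIs in WT IP and 0 in KO IP. The Lamb3 gene and an antisense RNA overlap Hsd11b1 on the other strand, and the strand setting of the counting is not given in the sources used here.

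Fkbp5 (ENSMUSG00000024222, chromosome 17, 28399094 to 28517527, minus strand) was the steadiest of the 9 genes in ASC-like cells as a whole, with 94.7, 96.0, 90.7 and 96.2 CPM. All 4 intervals overlap. T cell-like cells had 46.3, 37.7, 39.2 and 71.5 CPM, so that KO IP stood apart. B cell-like cells were lower still, at 19.7 to 29.7 CPM.

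Tsc22d3 (ENSMUSG00000031431, chromosome X, 140539528 to 140600659, minus strand) encodes GILZ, a leucine zipper protein that dampens inflammatory signalling. Its level in T cell-like cells hardly varied, at 237, 243, 239 and 245 CPM. B cell-like cells of SC were higher, with 443 and 419 CPM in WT and KO, and those of IP had 236 and 321 CPM. ASC-like cells split by depot, with 138 and 137 CPM in WT SC and KO SC against 79.9 and 90.3 CPM in WT IP and KO IP. Mesothelial-like cells of KO IP had 40.1 CPM, below all values of these 3 classes.

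Per1 (ENSMUSG00000020893, chromosome 11, 69095217 to 69109960, plus strand) encodes a repressor of the circadian clock that the receptor induces directly. In SC it followed the order of Tsc22d3 across classes. ASC-like cells had 42.0, 54.0, 26.2 and 36.4 CPM. T cell-like cells had 67.5, 71.3, 94.8 and 93.5 CPM, and B cell-like cells 67.2 to 90.8 CPM. Both IP libraries were the lower ones in ASC-like cells and the higher ones in T cell-like cells.

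Zbtb16 (ENSMUSG00000066687, chromosome 9, 48654297 to 48836222, minus strand) encodes PLZF, a zinc finger repressor that glucocorticoids induce in stromal cells and that innate-like lymphocytes need for their development. ASC-like cells had 204 (184 to 227), 169 (150 to 190), 141 (132 to 151) and 188 (175 to 201) CPM, with WT IP the lowest. Lymphocytes were divided. B cell-like cells had 0 to 1 UMI per library and CD4 T cells 0 to 2, while gamma delta cells had 564, 434 and 696 CPM in WT SC, KO SC and KO IP. Gamma delta cells gave 134 of 260, 276 of 467, 31 of 151 and 193 of 287 Zbtb16 UMIs of T cell-like cells. In WT IP, 37 of the 151 UMIs came from 1 cell.

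Sgk1 (ENSMUSG00000019970, chromosome 10, 21882184 to 21999903, plus strand) encodes a kinase that regulates ion transport and cell survival. ASC-like cells had 131 (114 to 148), 129 (112 to 147), 205 (194 to 217) and 189.6 (177 to 203) CPM, so the intervals of the depots did not overlap. Endothelial-like cells of WT IP, 17 in number, had 215 CPM. T cell-like cells had 26.1 to 35.6 CPM and B cell-like cells 0 to 12.0 CPM. Promoter sequence was searched for motifs in 7 of the 9 genes, from 250 bases before to 50 bases after each annotated start (RefSeq, GRCm38.p6). Of 15 such promoters, 1 of the 6 of Sgk1 held a full glucocorticoid response element (GRE, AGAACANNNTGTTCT, on either strand), from 189 to 175 bases before the start. It was present in 3 of 32851 promoters of that length, or 0.00913%. Its single arm (AGAACA, on either strand) was present in 19.0% of all promoters, and in 4 of the 15, which belong to Sgk1 and Tsc22d3. A GRE holds 2 arms by construction. The 250 bases before that start are shown because they carry this match, with the GRE and a further arm in capitals.
Sgk1 (promoter 5, chr10:21993640-21993889, plus strand): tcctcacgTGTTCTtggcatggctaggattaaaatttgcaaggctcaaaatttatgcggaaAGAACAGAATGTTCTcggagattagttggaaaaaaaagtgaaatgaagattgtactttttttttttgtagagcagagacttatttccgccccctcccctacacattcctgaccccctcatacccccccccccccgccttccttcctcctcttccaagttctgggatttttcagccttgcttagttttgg

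Mt1 (ENSMUSG00000031765, chromosome 8, 94179082 to 94180327, plus strand) and Mt2 (ENSMUSG00000031762, chromosome 8, 94172664 to 94173568, plus strand) are neighbours that encode metallothioneins, small cysteine-rich proteins that bind zinc and copper. In ASC-like cells Mt1 had 1303 (1251 to 1357), 2161 (2091 to 2233), 2489 (2450 to 2529) and 1845 (1805 to 1885) CPM in WT SC, KO SC, WT IP and KO IP. No pair of these intervals overlaps, and WT SC was the lowest library. Mt2 had 714 (676 to 755), 1181 (1129 to 1234), 838 (816 to 862) and 647 (623 to 671) CPM, with KO SC the highest. Mesothelial-like cells of KO IP, 28 in number, had 3408 CPM of Mt1 and 1543 CPM of Mt2. Macrophage-like cells of WT IP and KO IP had 810 and 441 CPM of Mt1, and 96.5 and 34.4 CPM of Mt2. T cell-like cells had 12, 32, 7 and 34 UMIs of Mt1 in all and at most 6.18 CPM of Mt2. An antisense RNA, Gm45774, overlaps Mt2.

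A UMI of Mt1 was seen in 85.3%, 86.9%, 92.3% and 86.8% of ASC-like cells (median depths 20722, 14661, 23332 and 21970 UMIs). It was seen in 0.662% and 0.217% of B cell-like cells of WT SC and KO SC (median depths 5943.5 and 4906.5 UMIs), a class that should lack it. In WT IP and KO IP it was seen in 1 of 20 and 1 of 24 B cell-like cells. After each cell was thinned to 2000 UMIs, Mt1 was seen in 67.5%, 76.5%, 78.7% and 73.9% of ASC-like cells and in 0.451%, 0.870%, 3.604% and 2.42% of T cell-like cells. Thinned B cell-like cells of WT IP and KO IP had it in 5% (0.127 to 24.9) and 0% (0 to 14.2), so the T cell-like shares of IP lay within these intervals. Thinning left out 12, 7, 19 and 17 ASC-like cells.

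The metal response element core (MRE, TGCACNC or TGCGCNC on either strand), bound by the metal-sensing factor MTF1, was present 4 times in the Mt2 promoter and 3 times in that of Mt1. At least 1 match was present in 25.7% of the 32851 promoters, at least 3 in 1.97% and at least 4 in 0.517%. Counted from the RefSeq start, the matches of Mt1 began at -23, 3 and 21 and those of Mt2 at -223, -128, -50 and 5. No GRE or arm of it was found in either window. Both sequences are shown because Mt1 and Mt2 went together between KO and WT within each depot in ASC-like cells. Both were higher in KO in SC and lower in KO in IP. The MRE cores before the start are in capitals.
Mt1 (chr8:94178839-94179088, plus strand): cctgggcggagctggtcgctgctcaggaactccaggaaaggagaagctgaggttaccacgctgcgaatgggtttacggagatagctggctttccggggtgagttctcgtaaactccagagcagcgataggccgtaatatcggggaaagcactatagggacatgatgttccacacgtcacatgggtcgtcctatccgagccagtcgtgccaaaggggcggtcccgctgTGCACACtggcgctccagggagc
Mt2 (chr8:94172368-94172617, plus strand): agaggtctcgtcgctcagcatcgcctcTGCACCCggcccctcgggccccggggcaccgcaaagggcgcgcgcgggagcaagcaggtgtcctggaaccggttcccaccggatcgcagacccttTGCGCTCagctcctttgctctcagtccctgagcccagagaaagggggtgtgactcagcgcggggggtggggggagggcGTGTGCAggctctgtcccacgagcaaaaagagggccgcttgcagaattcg

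**Figure D2:**
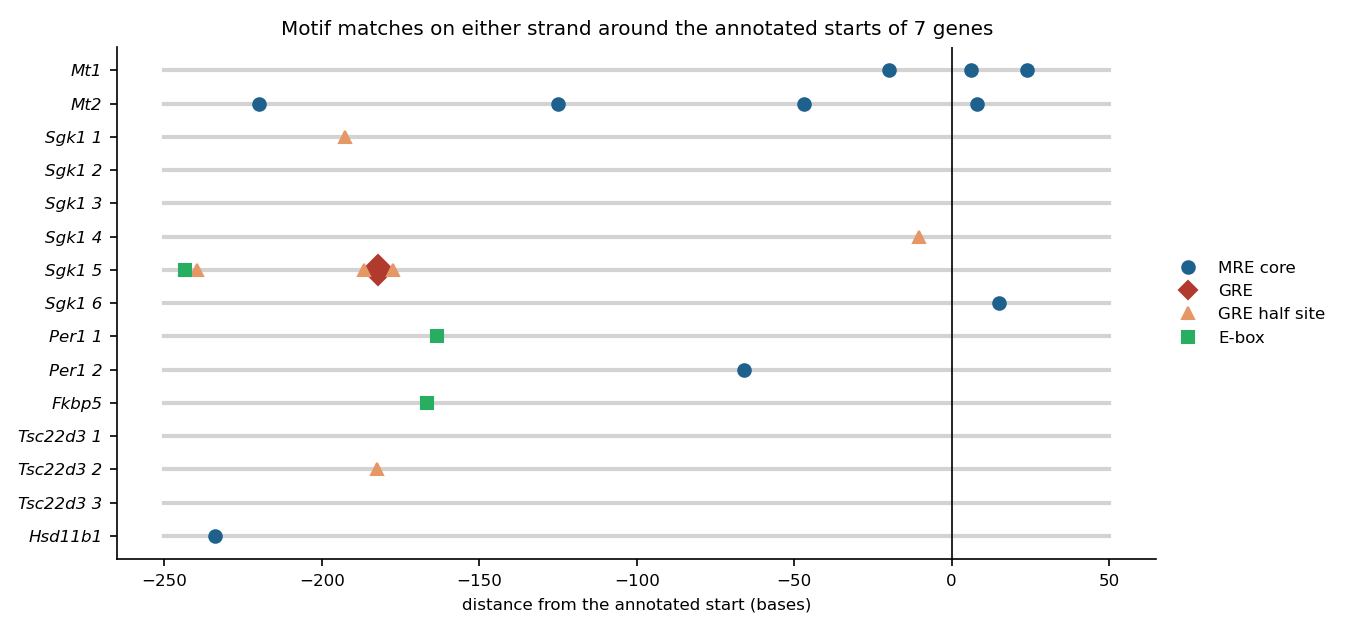
Motif matches on either strand in the 15 annotated promoters of 7 genes, by distance in bases from the RefSeq start (horizontal axis); numbers after a name mark a gene's promoters. MRE cores occur 4 times in Mt2 and 3 times in Mt1, and the GRE occurs once, in promoter 5 of Sgk1.

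The E-box CACGTG, the site of clock factors, was present in 7.15% of promoters and in 3 of the 15, namely promoter 1 of Per1, Fkbp5 and promoter 5 of Sgk1, where it overlaps the arm that lies outside the GRE. Single MRE cores were present in Hsd11b1, promoter 2 of Per1 and promoter 6 of Sgk1. Counts from the 3' end of transcripts do not show which start was used.

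KO was compared with WT within each depot, and a gene was called when it differed by at least 1.5-fold, its interval left out 0 and it had at least 20 UMIs in both libraries together. In ASC-like cells of SC, Mt1 and Mt2 were higher in KO and the other 7 genes were not called. The log2 ratio was 0.73 (0.65 to 0.81) for Mt1 and 0.72 (0.62 to 0.83) for Mt2. These are 2 of 9 genes, beside 5.06% of the 9771 genes compared that were called higher, 5.17% called lower and 10.2% either way. In the same cells, Nr3c1 had a log2 ratio of 0.32 (0.09 to 0.55), Zbtb16 of -0.27 (-0.50 to -0.05) and Hsd11b1 of -0.32 (-0.57 to -0.08). Fkbp5, Tsc22d3 and Sgk1 had ratios between -0.02 and 0.02, with intervals of the difference from -0.30 to 0.34 over the 3 genes.

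In ASC-like cells of IP no gene of the 9 was called, beside 11.8% of 12281 genes called (7.54% higher and 4.26% lower). Mt1 and Mt2 pointed the other way from SC, with log2 ratios of -0.43 (-0.47 to -0.39) and -0.37 (-0.44 to -0.31). Zbtb16 had 0.41 (0.27 to 0.55), also opposite to SC, and Per1 had 0.48 (0.15 to 0.80). Nr3c1 had 0.29 (0.15 to 0.43), close to its value in SC. The SC ratio minus the IP ratio was 1.16 (1.08 to 1.25) for Mt1, 1.10 (0.98 to 1.22) for Mt2, -0.68 (-0.95 to -0.42) for Zbtb16 and -0.46 (-0.73 to -0.18) for Hsd11b1, and for the other 5 genes its interval held 0. These intervals hold counting error alone, so a difference between mice and a difference between genotypes cannot be told apart.

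**Figure D3:**
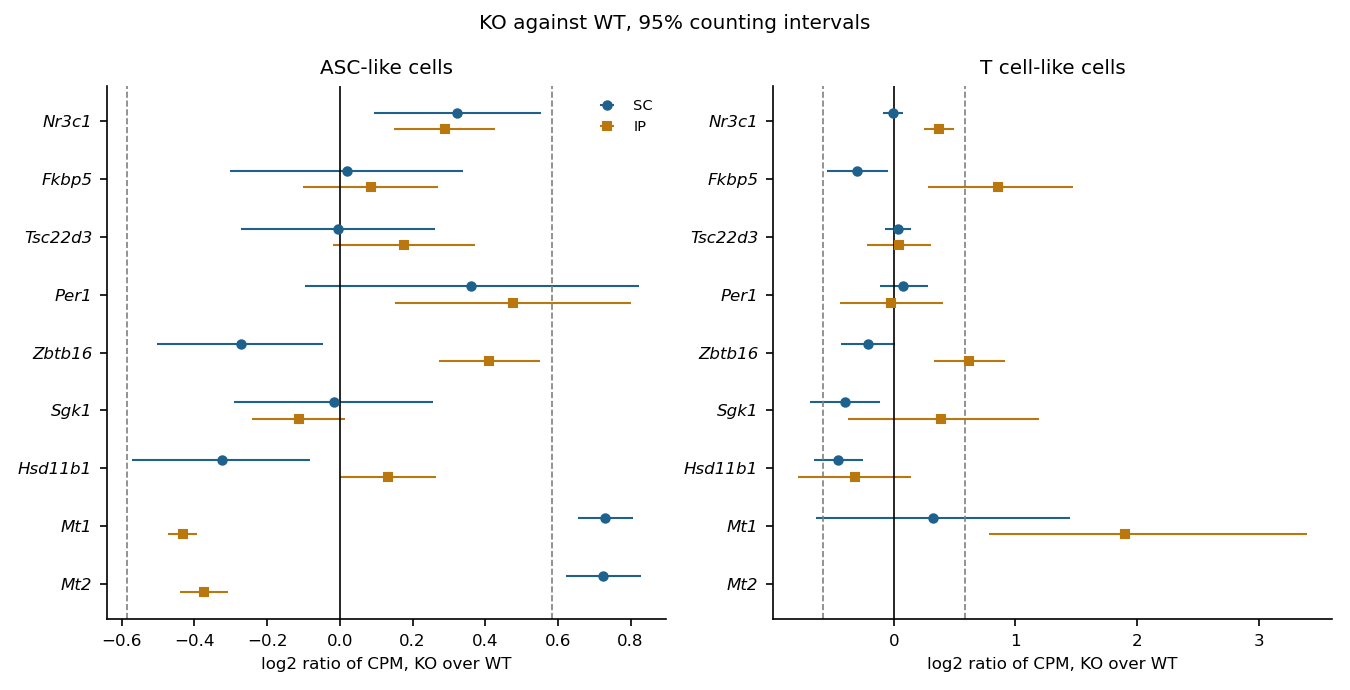
Log2 ratios of CPM, KO over WT, for the 9 genes in ASC-like (left) and T cell-like cells (right), with circles for SC, squares for IP, 95% counting intervals as bars and dashed lines at 1.5-fold; genes with under 20 UMIs are not drawn. In ASC-like cells Mt1 and Mt2 lie at 0.73 and 0.72 in SC and at -0.43 and -0.37 in IP.

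Other values of the same cells were set beside these ratios. In ASC-like cells of SC, the 8 red cell markers summed to 1905 and 42.0 CPM in WT and KO. Of them 5 were called lower in KO, and 1 had no UMI in WT and 2 none in KO. In IP the sums were 344 and 73.5 CPM, with 4 called lower, and 3 markers were at 0 in WT and 1 in KO. The 8 mural markers summed to 169 and 74.5 CPM in WT and KO of IP, none of them at 0, with 4 called lower and 1 higher. Of 23 dissociation and immediate early genes, 7 were called higher in KO in SC and 3 lower in IP, beside 5.06% of all genes higher in SC and 4.26% lower in IP. Among them were Ier2 (0.85), Ier3 (0.77), Atf3 (0.77) and Egr1 (0.72) in SC, and Hspa1a (-1.82), Socs3 (-0.68) and Jun (-0.66) in IP, all as log2 ratios. None of 12 mitochondrially encoded genes was called in either depot. The part of these in the metallothionein ratios was not tested.

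In T cell-like cells of SC, 0 of the 8 genes with enough UMIs were called, beside 12.9% of 11299 genes called (2.54% higher and 10.3% lower). Hsd11b1 had a log2 ratio of -0.46 (-0.66 to -0.25), Sgk1 of -0.40 (-0.69 to -0.11) and Fkbp5 of -0.30 (-0.55 to -0.05). Nr3c1 and Tsc22d3 lay at 0.00 (-0.08 to 0.08) and 0.03 (-0.07 to 0.14), while the median of all genes was -0.14. Of the 23 dissociation and immediate early genes 5 were called lower in KO, beside 10.3% of all genes, among them Hspa1a (616 and 25.7 CPM in WT and KO), and their part in these ratios was not tested. In CD8 T cells of SC, 2 of 6 genes were called, both lower in KO, beside 7.37% of genes called lower, 1.75% higher and 9.12% either way. Fkbp5 had 54.9 and 29.5 CPM in WT and KO (log2 ratio -0.90, -1.26 to -0.52), and Sgk1 had 45.6 and 24.99 CPM (-0.87, -1.27 to -0.46). In CD4 T cells of SC 0 of 6 were called, beside 12.4% of genes (2.99% higher and 9.44% lower), and Fkbp5 had 0.39 (-0.19 to 1.03). B cell-like cells of SC likewise had 0 of 6 called, beside 8.22% of genes (2.42% higher and 5.8% lower), and the 6 ratios lay between -0.13 and 0.37. In WT and KO of SC, Hspa1a had 301 and 25.9 CPM in CD8 T cells and 876 and 13.4 CPM in CD4 T cells. In B cell-like cells it had 968 and 59.1 CPM, and its part in these ratios was not tested.

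In T cell-like cells of IP, 3 of 8 genes were called higher in KO, beside 10.7% of 7880 genes called higher, 3.55% lower and 14.3% either way. Fkbp5 had 36 UMIs in WT and 81 in KO, a log2 ratio of 0.86 (0.28 to 1.47). Zbtb16 had 0.62 (0.33 to 0.92), which fell short of a call at 0.49 under median-of-ratios scaling. Mt1 had 1.90 (0.78 to 3.39), and 0.03 with classes taken from clusters. Some of these counts lay in few cells, and the mix of T cell-like cells differed between the libraries. The part of either in the ratios was not tested. Of the 34 Mt1 UMIs in KO, 18 came from 1 cell, without which the level was 15.6 CPM against 7.62 CPM in WT. Gamma delta cells made up 24.8% (17.5 to 33.3) of T cell-like cells in KO IP and 8.11% (3.77 to 14.8) in WT IP, and without them Zbtb16 reversed to -0.37 (-0.77 to 0.03). Fkbp5 without them had 0.72 (0.09 to 1.39), and Nr3c1 had 0.06 (-0.08 to 0.21) in place of 0.37 (0.25 to 0.50). Red cell markers in T cell-like cells of IP summed to 6213 and 139 CPM in WT and KO, with 4 of 8 called lower, 1 at 0 in WT and 3 at 0 in KO, and their part in these ratios was not tested.

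IP was compared with SC within each genotype. The WT libraries serve both here and in the comparison above, as do the KO libraries, so the comparisons are not independent. In ASC-like cells of WT, 4 of 9 genes were called, beside 24.3% of 11682 genes (12.7% higher and 11.7% lower). Tsc22d3 and Per1 were lower in IP, with log2 ratios of -0.79 (-1.01 to -0.56) and -0.69 (-1.09 to -0.27). Sgk1 and Mt1 were higher, with 0.65 (0.45 to 0.86) and 0.93 (0.87 to 0.997), and under median-of-ratios scaling Sgk1 was just short of a call at 0.585. In KO, 2 of 9 were called, beside 25.9% of 11348 genes (15.1% higher and 10.8% lower), and both were lower in IP. Tsc22d3 had -0.61 (-0.84 to -0.36), and Mt2 had -0.87 (-0.95 to -0.78). Per1 and Sgk1, at -0.57 (-0.95 to -0.18) and 0.55 (0.34 to 0.78), stayed short of 1.5-fold. Fkbp5 lay at -0.07 (-0.31 to 0.19) in WT and at 0.00 (-0.26 to 0.27) in KO. Of the 23 dissociation and immediate early genes, 3 were called higher and 4 lower in IP in WT, and 1 higher and 11 lower in KO, beside the shares of all genes given above. The 8 mural markers summed to 49.9, 46.8, 169 and 74.5 CPM, with Rgs5 at 0 in both SC libraries and Higd1b at 0 in KO SC. The part of these genes in the ratios was not tested.

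In T cell-like cells of WT, 2 of 7 genes were called, both higher in IP, beside 15.4% of 9785 genes (8.72% higher and 6.67% lower). They were Nr3c1 with 1.26 (1.14 to 1.38) and Zbtb16 with 1.54 (1.23 to 1.83). In KO, 4 of 8 were called higher, beside 24.3% of 10808 genes called higher, 5.26% lower and 29.5% either way, where the median of all genes was 0.32. Nr3c1 had 1.64 (1.55 to 1.73), Zbtb16 2.37 (2.15 to 2.58), Fkbp5 0.93 (0.56 to 1.28) and Mt1 3.16 (2.42 to 3.90), with 18 of the 34 Mt1 UMIs of KO IP from 1 cell, without which its level was 15.6 CPM against 3.36 CPM in KO SC. Without gamma delta cells Nr3c1 had 1.39 (1.26 to 1.51) in WT and 1.60 (1.49 to 1.72) in KO, and Zbtb16 had 2.29 (1.91 to 2.66) and 2.36 (1.98 to 2.72). Tsc22d3 lay at 0.01 (-0.21 to 0.22) in WT and 0.02 (-0.17 to 0.19) in KO. The 8 NK cell markers summed to 85.2, 94.9, 312 and 348 CPM in T cell-like cells, with Ncr1 and Klra8 at 0 in WT SC and Klra8 at 0 in both IP libraries, and NK cell-like cells of IP had much Nr3c1. Of the dissociation and immediate early genes, 6 of 23 were called higher and 6 lower in IP in WT, and 10 of 22 higher and 2 lower in KO. Hspa1a had -1.82 in WT and 2.31 in KO, Hspa1b -1.60 and 2.23, and Klf2 -1.82 and -1.89. The part of such cells and genes in the ratios was not tested.

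The subsets with enough cells were compared in the same way. In CD4 T cells of WT, Nr3c1 (1.82, 1.59 to 2.04) and Hsd11b1 (0.83, 0.10 to 1.48) were higher in IP, 2 of 6 genes, beside 9.76% of genes called higher, 8% lower and 17.8% either way. In CD8 T cells of WT, Nr3c1 (0.66, 0.39 to 0.91) and Per1 (0.70, 0.09 to 1.24) were higher and Fkbp5 (-0.90, -2.06 to -0.03) was lower, 3 of 6 genes, beside 7.66% of genes called higher, 3.24% lower and 10.9% either way. In gamma delta cells of KO, Tsc22d3 (1.01, 0.42 to 1.58), Zbtb16 (0.68, 0.41 to 0.95) and Hsd11b1 (1.20, 0.44 to 1.95) were higher in IP, 3 of 7 genes, beside 16.2% of genes called higher, 8.32% lower and 24.5% either way. Their Nr3c1 ratio was 0.53 (0.37 to 0.69), under 1.5-fold. Dissociation and immediate early genes differed in the same subsets. Of those compared, 6 of 20 were higher and 6 lower in IP in CD4 T cells of WT (Hspa1a -3.54, Jun -2.37), 5 of 22 higher and 5 lower in CD8 T cells of WT (Hsph1 -1.74, Klf2 -1.66), and 1 of 21 higher and 8 lower in gamma delta cells of KO (Atf3 -2.38, Jund -2.30), and their part was not tested. In CD4 T cells mt-Cytb was lower as well (-0.67). Counts behind these subsets were small, with 10 Fkbp5 UMIs in CD8 T cells of WT IP.

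**Figure D4:**
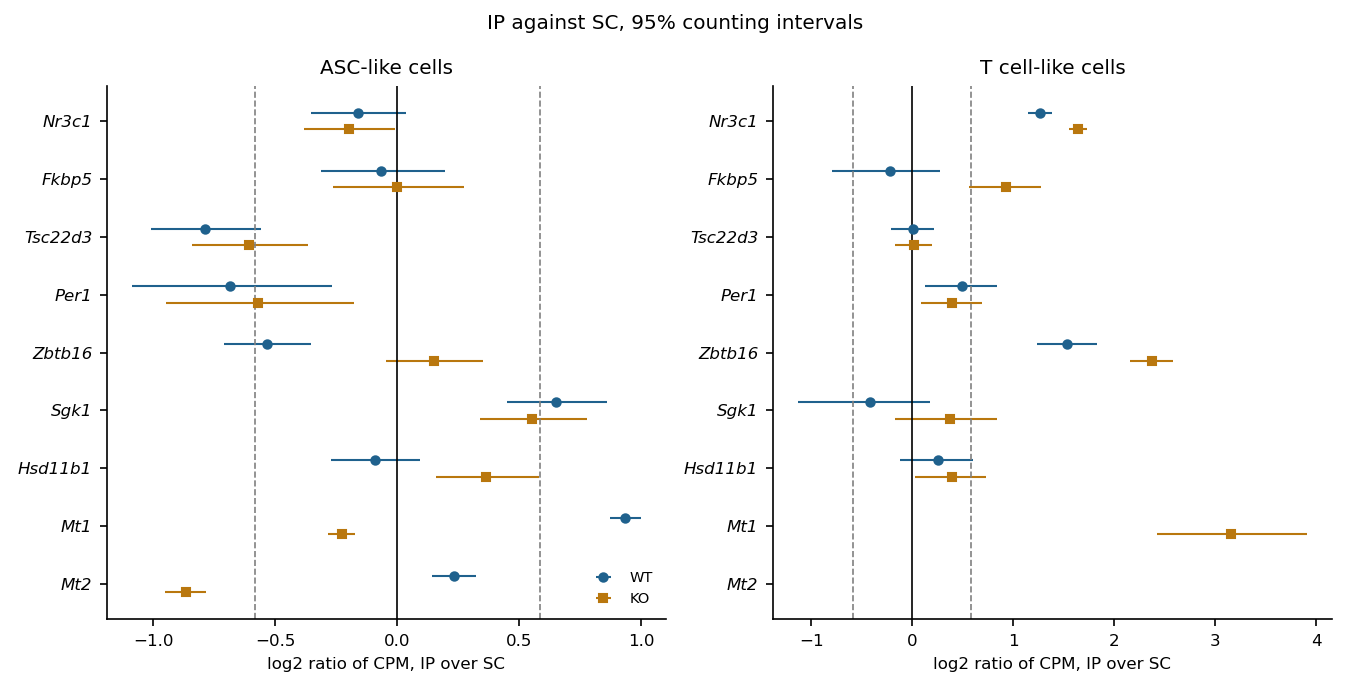
Log2 ratios of CPM, IP over SC, for the 9 genes in ASC-like (left) and T cell-like cells (right), with circles for WT, squares for KO, 95% counting intervals as bars and dashed lines at 1.5-fold; genes with under 20 UMIs are not drawn. Nr3c1 and Zbtb16 lie to the right in T cell-like cells of both genotypes, and Mt1 and Mt2 differ between genotypes in ASC-like cells.

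ASC-like cells were not uniform in these genes. Hsd11b1 was the most concentrated, with the richest 10% of cells in each library holding 63.2% to 72.8% of its UMIs, against 29.4% to 31.4% for Nr3c1. When ASC-like cells were split by a UMI of Pi16 or Dpp4, markers of a progenitor state, Hsd11b1 had 78.3, 54.9, 141 and 147 CPM in cells with such a UMI. It had 537, 480, 236 and 450 CPM in cells without one. The log2 ratio of cells without over cells with was 2.78 (2.44 to 3.13), 3.12 (2.72 to 3.55), 0.74 (0.57 to 0.92) and 1.62 (1.40 to 1.83). Sgk1 followed in SC, at 1.75 (1.37 to 2.14) in WT and 1.41 (0.998 to 1.81) in KO. In IP it was at 0.00 (-0.17 to 0.18) in WT and at 0.49 (0.23 to 0.74) in KO. The split was chosen after class levels had been seen. Cells with such a UMI were deeper, with median depths of 15177.5 to 25837 UMIs against 6046 to 19196, and the part of depth was not tested.

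**Figure D5:**
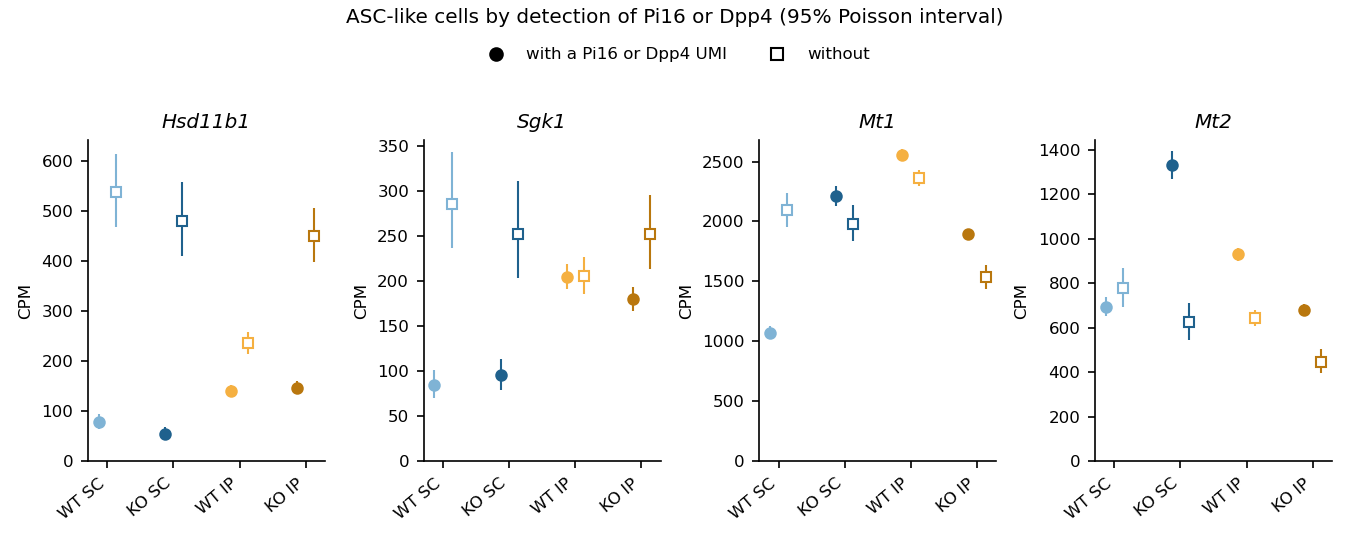
CPM of Hsd11b1, Sgk1, Mt1 and Mt2 in ASC-like cells with (filled circles) and without (open squares) a UMI of Pi16 or Dpp4, by library, with 95% Poisson intervals and vertical axes from 0. Hsd11b1 is higher without such a UMI in all 4 libraries, and WT SC cells with one have the lowest Mt1 level, 1070 CPM.

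Mt1 differed between KO and WT of SC mainly in cells with a Pi16 or Dpp4 UMI. In them Mt1 had 1070 CPM in WT (68 cells) and 2210 CPM in KO (96 cells), a log2 ratio of 1.05 (0.96 to 1.14), and Mt2 had 0.94 (0.82 to 1.05). In cells without, 27 in WT and 26 in KO, Mt1 had 2095 and 1982 CPM, a ratio of -0.08 (-0.23 to 0.07), and Mt2 had -0.31 (-0.57 to -0.06). In IP both parts were lower in KO, with -0.43 (-0.47 to -0.39) and -0.62 (-0.72 to -0.52) for Mt1. Cells without such a UMI also differed in Hsd11b1 in IP, at 0.93 (0.71 to 1.15), and in Fkbp5 in SC, at 1.18 (0.54 to 1.86), from 62 UMIs in KO and 31 in WT. In IP these cells numbered 108 in WT and 52 in KO, with median depths of 19196 and 6046 UMIs. The part of that gap in depth was not tested, and no share over all genes was taken for this split. In cells with a Pi16 or Dpp4 UMI, Hsd11b1 in IP had 0.06 (-0.11 to 0.23). Fkbp5 in SC pointed the other way there, at -0.42 (-0.81 to -0.04), from 98 UMIs in KO and 138 in WT.

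Across single ASC-like cells, Mt1 and Mt2 varied together, with Spearman's rho of 0.75, 0.67, 0.77 and 0.74 over 83 to 254 cells, and of 0.47 to 0.58 after thinning to 2000 UMIs. The pair of Mt1 and Sgk1 reached 0.41 in WT IP and 0.22 after thinning. For Fkbp5 with Tsc22d3, Fkbp5 with Zbtb16 and Nr3c1 with Fkbp5, rho lay between -0.18 and 0.31, and between -0.22 and 0.16 after thinning. The cells of a library share its depth and handling, so these values are descriptions.

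Over 12 sums of a class in a library, the genes whose pattern was most like that of each gene were ranked among 10460 genes by Pearson's r of log2(CPM + 10). The points share libraries, and most of their spread is between stromal cells and lymphocytes. Nr3c1 was closest to Zdhhc2 (r = 0.96), Rnf43 (0.96) and Pgm2l1 (0.96). Hsd11b1 was closest to Agpat3 (0.96), Yipf4 (0.93) and Fam160b1 (0.93), and Fkbp5 to Dip2a, Txn1 and Acadvl (0.96 each). For Tsc22d3 the closest were Gpbp1 (0.975), Luc7l3 (0.97) and Nipbl (0.97), and for Per1 Mef2d (0.98), Crebbp (0.975) and Cnot4 (0.97). Zbtb16 was closest to Rora (0.98), which encodes a nuclear receptor of innate lymphocytes and the clock, followed by Ski and Ldlrad4 (0.97 each). Sgk1 was closest to Slc29a1, Hspa13 and Ift20 (0.99 each), Mt1 to Dstn, Tppp3 and Cmtm3 (0.99 each), and Mt2 to Kitl (0.996), Ccl7 (0.995) and Pmp22 (0.995). Among the 9 genes, r was 0.97 for Mt1 with Mt2, 0.91 for Tsc22d3 with Per1 and -0.96 for Tsc22d3 with Sgk1.

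The rest of the pathway was read from lists. Of 12 genes of the receptor machinery (chaperones, coregulators and related enzymes), 0 of the 11 (SC) and 12 (IP) with enough UMIs were called in KO against WT in ASC-like cells, with medians of 0.13 in SC and 0.23 in IP beside -0.00 and 0.06 for all genes. Between depots 3 of 12 were called in WT and 3 of 12 in KO, close to the 24.3% and 25.9% of all genes. H6pd, whose product supplies the cofactor of 11beta-HSD1, was higher in IP in WT (31.9 and 83.8 CPM in SC and IP, log2 ratio 1.38) and in KO (36.6 and 90.7 CPM, 1.30). Nr3c2, the mineralocorticoid receptor gene, which also binds glucocorticoid, was lower in IP in WT (-1.20) and in KO (-0.81). In T cell-like cells of IP, Nr3c2 was higher in KO, with 17.4 and 71.5 CPM in WT and KO.

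Of 24 other glucocorticoid targets, 2 of 16 compared were higher and 1 lower in KO ASC-like cells of SC, and 4 of 20 were higher and 2 lower in those of IP, beside 5.06% of all genes higher and 5.17% lower in SC and 7.54% and 4.26% in IP. In SC these were Bcl2l11 (1.504), a pro-apoptotic gene, Nfkbia (0.76), an inhibitor of NF-kB, and Angptl4 (-0.69), an inhibitor of lipoprotein lipase. In IP the largest was Lcn2, an iron-carrier binding protein, at 111 CPM in KO against 4.26 CPM in WT (4.68, 4.14 to 5.34). Neutrophil-like cells numbered 3 and 22, and mesothelial-like cells 4 and 28, in WT IP and KO IP. Whether RNA of those classes had a part in the Lcn2 ratio was not tested. Between depots 5 of 20 were higher and 5 lower in WT, beside 12.7% and 11.7% of all genes, and 5 higher and 7 lower in KO, beside 15.1% and 10.8%, among them Il1r2 (-3.11 in WT and -2.75 in KO). The medians of the list for KO over WT were 0.13 (SC) and 0.07 (IP). Among T cell-like cells of IP, 4 of 12 were higher in KO and 1 lower, beside 10.7% and 3.55% of all genes and with the share of gamma delta cells at 8.11% in WT and 24.8% in KO, whose part was not tested. Of these targets, Anxa1 (1.15), the gene of an anti-inflammatory annexin, and Il7r (0.94), the interleukin 7 receptor gene, were the furthest apart. Il1r2 also stands in the list of neutrophil markers and Cry2 in that of clock genes.

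Of 14 clock genes, 3 of 13 compared were higher in KO ASC-like cells of SC (Dbp 0.71, Tef 0.68, Arntl 0.59), and 4 were higher and 1 lower in those of IP, including Hlf (1.17) and Per2 (1.16), beside 5.06% of all genes higher in SC and 7.54% higher and 4.26% lower in IP. Between depots, 8 of 13 were lower and 1 higher in IP in WT, beside 11.7% and 12.7% of all genes, and 6 were lower in KO, beside 10.8%, with list medians of -0.85 and -0.57 beside 0.06 and 0.10 for all genes. Dbp, an output gene of the clock, had 28.6, 46.8, 5.40 and 5.66 CPM. Per1 was lower in IP in both genotypes along with these genes. The hour at which tissue was taken is not given in the sources used here.

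Of 11 metal response genes, 2 of 8 compared were higher in KO ASC-like cells of SC and 3 of 8 in those of IP, beside 5.06% and 7.54% of all genes, and none was lower. They were Gclc and Hmox1 in SC, and Hmox1, Gclm and Gclc in IP. No other gene of the list was called, among them Mtf1 and the zinc transporter genes. Hmox1, the gene of haem oxygenase 1, had log2 ratios of 1.16 (0.80 to 1.54) in SC and 1.20 (1.06 to 1.34) in IP. Gclc, for the enzyme that limits glutathione synthesis, had 1.20 (0.92 to 1.49) and 0.83 (0.63 to 1.03). Both thus pointed the same way in the depots, whereas Mt1 and Mt2 did not.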

How the data were processed

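The deposited values were raw UMI counts for 4 libraries made with the 10x Genomics Chromium 3' v3 kit. The file headers name Cell Ranger 7.0.0 as the program the authors used, and the submitters' processing notes name STAR 2.6 and mm10. The strand setting and the use of intronic reads are not given in the sources used here; intronic reads would raise long genes. A barcode needed 200 genes, and no more than 25% of its UMIs could be mitochondrial. Scrublet in scanpy 1.11.5 marked 23 of 4136 barcodes as doublets (0.556%), which were removed. A cell took the class with most of its 8 markers seen, if at least 3 and at least 2 more than the next class. Red cell markers counted only where haemoglobin made up at least 50% of UMIs. Between 0.698% and 5.21% of a library's cells were mixed and 3.22% to 8.30% had too few markers.

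The UMIs of a class were added up in each library and expressed as CPM, and classes needed 30 cells in both libraries to be compared. Log2 ratios were taken after adding 0.5 UMI. Intervals are exact Poisson for CPM, exact conditional binomial for ratios and Clopper-Pearson for shares. Beside a 0, the level of 3 counts is given as its limit. Scripts were tested on simulated data. Software was scipy 1.17.1, numpy 2.4.6, pandas 2.3.3, anndata 0.12.19, igraph 0.11.9 and matplotlib 3.10.9 under Python 3.11.15.

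The 9 genes, the lists and the comparisons were chosen with earlier results of these data known. The 9 genes were named in every comparison, as were at most 4 called genes of each other list, those with the largest ratio, and the 3 genes most like each of the 9 among genes with at least 200 UMIs. Gene positions are from GENCODE M21 on GRCm38. Nr3c1 and Zbtb16 were not searched for motifs. Some genes of the lists and 1 split of T cells are not reported here.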

Additional observations from a re-analysis of the deposited data

Results flagged for a closer look

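Values with counting intervals that pointed opposite ways in the 2 depots or genotypes are listed here. Each group is 1 library, and whether the effects differ beyond the spread between mice was not tested. For KO against WT in ASC-like cells, the log2 ratio was -0.27 in SC and 0.41 in IP for Zbtb16, 0.73 and -0.43 for Mt1, and 0.72 and -0.37 for Mt2. In T cell-like cells, Fkbp5 had -0.30 in SC and 0.86 in IP. For IP against SC in ASC-like cells, Mt1 had 0.93 in WT and -0.23 in KO, and Mt2 had 0.23 and -0.87. The metallothionein values of both kinds come from the same 4 libraries and are 1 pattern seen from either side.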

How the results depend on the processing

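Recomputing the 9 genes under 11 other settings and 4 more chosen after seeing the data gave 1025 values. Of them, 958 moved by less than their counting error and 64 moved further, sign changes of values not called included. Settings of no minimum of UMIs, at least 50 UMIs or 2-fold changed only the rule for a call, so no ratio could move. Among the 233 values of called results, the other 3 changed sign. The 3 were Zbtb16 in T cell-like cells of IP without gamma delta cells (KO against WT, -0.37), and Mt1 (-0.080) and Mt2 (-0.31) in ASC-like cells of SC without a Pi16 or Dpp4 UMI. The 5 calls of KO against WT in ASC-like, T cell-like and B cell-like cells became 10 with each cell weighted equally, where no interval was applied, and 1 at a threshold of 2-fold. The 12 calls of IP against SC became 5 at 2-fold. Under median-of-ratios scaling, Sgk1 (IP against SC, ASC-like, WT) and Zbtb16 (KO against WT, T cell-like, IP) were no longer called, and with classes taken from clusters Mt1 in T cell-like cells of IP went from 1.90 to 0.03. No paired analysis was possible because each group is 1 library and the labels give no replicate numbers. With 1 library a group, depth limits only the counting error, and the spread between mice is unknown.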
